A study of Medicago sativa with 9 samples.

Results

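Intergenic 2-exon long non-coding RNAs are transcripts that lie between annotated genes and are modelled with a single intron. They were chosen in a table of predicted lncRNAs from alfalfa leaves as the rows with class code u (intergenic), a place on a named chromosome and 2 exons. The rule used no expression value, and it found 5398 of the 64684 listed transcripts (8.35%), in 4857 loci. They made up 12.8% of the 42073 intergenic transcripts on the 32 named chromosomes. A further 426 transcripts of the same kind lie on unplaced scaffolds and were outside the rule.

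Leaves came from field-grown Medicago sativa, cultivar Kangsai, with 3 libraries in each of 3 groups. Control plants are labelled CK, low Se plants received 100 mg/L and high Se plants 500 mg/L of selenium, which the series text calls selenite. Plants 20 cm tall were sprayed 3 times at intervals of 7 days, and the labels do not say what the control plants were sprayed with. Whether the 3 libraries of each group stem from different plants is not stated. A p-value here therefore speaks only of variation among these samples, and that variation may be technical.

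An intron in a transcript model is commonly read as a sign that the RNA was cut and rejoined, and the bases at its ends usually tell which strand was transcribed. No intron ends were read here, so a gap in a model is not shown to be a splice. Where an intron is real, it sets a transcript apart from single-exon models, for which random genomic or precursor RNA is harder to tell from a transcript. Plant lncRNAs can act as precursors or decoys of small RNAs, as guides for chromatin changes or as antisense partners of genes, but most have no known role. Selenite is taken up by plants in part through phosphate transporters and enters sulfur metabolism. No function is given in the sources used here for any of the 5398 transcripts, and the table holds no coding genes, so leaf marker genes could not be looked at.

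All 5398 members carried a strand, 2699 on plus and 2699 on minus. Their exons added up to a median of 384 bases (quartiles 273 and 592, range 200 to 5476). Intergenic transcripts with 3 or more exons were longer, with a median of 506 bases over 1627 transcripts, and strand-assigned transcripts of 1 exon had a median of 456 bases over 3006. The 32042 intergenic transcripts of 1 exon without a strand were shorter, with a median of 284 bases. Members were spread over all 32 chromosomes, from 115 on chromosome 2.2 to 219 on chromosome 3.4. Their share of a chromosome's intergenic transcripts ran from 10.2% on chromosome 2.2 to 15.1% on chromosome 8.2.

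The single intron, taken as the genomic span minus the transcript length, had a median of 545 bases with quartiles of 145 and 2144. Introns under 50 bases were found in 298 members (5.52%), and introns of 10000 bases or more in 256 (4.74%). The longest belonged to MSTRG.13766.1 on the plus strand of chromosome 1.2 (49408620 to 49490441), whose 484 bases of exon are split by 81338 bases. It was above 0 in all 9 libraries, with 3.9, 8.01 and 0.773 FPKM in control leaves, 2.12, 3.39 and 1.41 FPKM in low Se and 5.22, 1.45 and 4.82 FPKM in high Se leaves. FPKM stands for fragments per kilobase of transcript and per unit of mapped library, so it adjusts for transcript length and library size. It does not by itself make libraries comparable, and results under other scalings are given below. MSTRG.61438.1 on chromosome 3.4, with an intron of 80405 bases, was above 0 only in control 1 (3.63 FPKM) and low Se 2 (0.694 FPKM). At the other end, 13 members had an intron of 20 bases. One of them, MSTRG.111019.1 on chromosome 6.2, was above 0 in all 9 libraries at 1.3 to 12.9 FPKM, whereas MSTRG.122997.2 on chromosome 7.1 was above 0 only in high Se 3, at 3.44 FPKM.

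**Figure D1:**
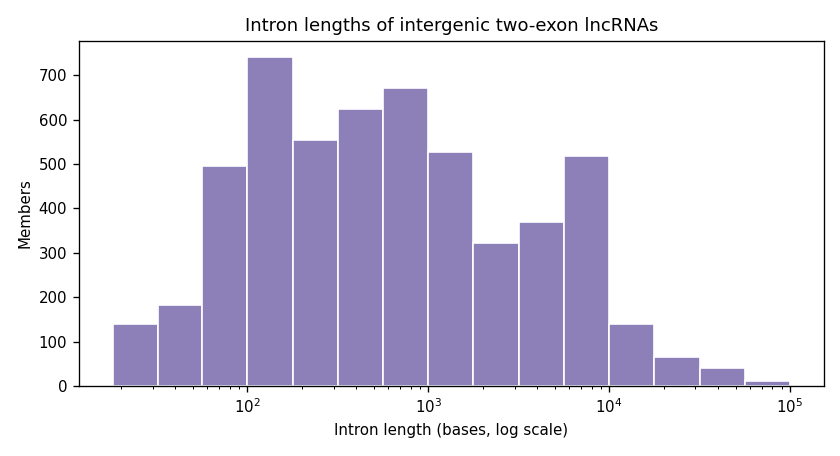
Number of intergenic 2-exon lncRNAs (vertical axis) by intron length in bases (horizontal axis, log scale) for all 5398 members. The fullest bin, 100 to 178 bases, holds 741 members, with further peaks of 672 members at 562 to 1000 bases and 517 at 5623 to 10000 bases and a low of 323 between them, at 1778 to 3162 bases.

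Level varied little with intron length, and the share of members seen in every library varied without a steady trend. Median mean FPKM over the 9 libraries was 0.808 for introns under 50 bases, 1.03 for introns of 500 to under 1000 bases and 0.922 for introns of 10000 bases or more. Members above 0 in all 9 libraries made up 8.05% for introns under 50 bases, 12.1% from 50, 12.7% from 100, 13.7% from 200, 15.8% from 500, 14.9% from 1000, 12.4% from 5000 and 19.1% from 10000 bases. These shares are descriptions of the listed models and were not tested.

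Most members were rare transcripts. The median of the mean FPKM was 0.928, against 1.08 for intergenic transcripts with 3 or more exons, 1.34 for strand-assigned transcripts of 1 exon and 0.611 for the 32042 transcripts of 1 exon without a strand. A mean below 1 FPKM was found for 2844 members (52.7%), 140 reached 10 FPKM and 8 reached 100 FPKM. Members above 0 in all 9 libraries numbered 742 (13.7%), a share near that of transcripts with 3 or more exons (15.9%), below that of strand-assigned transcripts of 1 exon (41.4%) and above that of 1-exon transcripts without a strand (5.42%). Another 747 members (13.8%) were above 0 in a single library.

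Depth bears on these counts. If FPKM was computed in StringTie's usual way, coverage divided by FPKM puts the aligned sequence of a library at 1.44 to 2.97 gigabases. Median coverage of the 4061 members that averaged 0.5 FPKM or more was 0.986 to 3.47 reads per base, and the table holds no counts from which a counting error could be given. In log2 values of these 4061 members, libraries of the same group correlated at a mean r of 0.351 (0.255 to 0.42 over 9 pairs) and libraries of different groups at 0.278 (0.207 to 0.311 over 27 pairs). Control 1 stood apart from its own group: it correlated at 0.277 and 0.255 with control 2 and control 3, and at 0.263 to 0.311 with the low Se and high Se libraries. Low Se 1 likewise correlated with low Se 2 and low Se 3 (0.312 and 0.29) about as with the libraries of other groups (0.282 to 0.31). Named changes that pass the threshold without control 1 or low Se 1 are therefore also given without it.

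Members above 0 FPKM numbered 3075, 2684 and 2452 in the control libraries, 2801, 3080 and 2622 in the low Se libraries and 2947, 3312 and 3325 in the high Se libraries. High Se libraries 2 and 3 held the most. Implied aligned sequence was 2.55, 1.44 and 2.78 gigabases for control, 1.68, 2.65 and 2.11 for low Se and 2.07, 2.97 and 2.49 for high Se leaves. Control 3 thus had the second largest amount of sequence and the fewest members. The mean was 2737 ± 315 for control, 2834 ± 231 for low Se and 3195 ± 215 for high Se leaves (SD, n = 3 each), and the ranges of high Se and of the other groups overlapped. As a share of all transcripts above 0 in the library, the members were steady, between 8.91% and 9.39% in every library. The part of depth in the differences between groups was not tested.

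**Figure D2:**
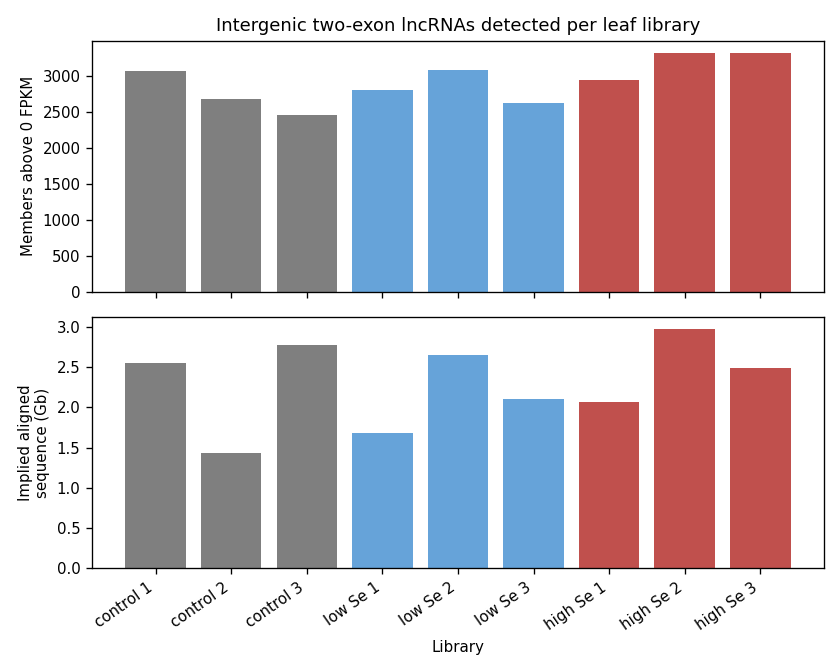
Upper bars give the number of intergenic 2-exon lncRNAs above 0 FPKM in each of the 9 leaf libraries, and lower bars the aligned sequence in gigabases implied by the ratio of coverage to FPKM. The upper bars run from 2452 in control 3 to 3325 in high Se 3, and control 3 is among the deepest libraries at 2.78 gigabases.

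Members held 5.68%, 5.31% and 3.82% of the summed FPKM of the control libraries, 3.19%, 3.55% and 4.24% of the low Se libraries and 3.38%, 4.15% and 3.7% of the high Se libraries. The higher control values rested on 1 transcript. Without MSTRG.100871.2 the group means were 3.58% ± 0.457 for control, 3.17% ± 0.376 for low Se and 3.74% ± 0.386 for high Se leaves (SD, n = 3 each), and the libraries of the groups overlapped. The 10 members with the highest mean over the 9 libraries held between 12% and 52.5% of the FPKM of the class in a library.

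MSTRG.100871.2 lies on the minus strand of chromosome 5.3 (72030114 to 72030533) and joins 321 bases across an intron of 99. It had 10974, 4426 and 0 FPKM in control leaves, 0, 0 and 4998 FPKM in low Se and 0 FPKM in all 3 high Se libraries. So it was either among the most abundant transcripts of a library or listed at 0. A plus-strand transcript over the same place, MSTRG.100870.1 (71944179 to 72030542), had 18949 to 46571 FPKM in all 9 libraries. The other listed form of the minus-strand locus, MSTRG.100871.1, has the same upper coordinate and is classed as overlapping a gene on the same strand. That form had 0, 2149 and 3625 FPKM in control leaves, 1223, 4361 and 4129 FPKM in low Se and 3229, 2368 and 7209 FPKM in high Se leaves. Summed over both forms, the locus was above 1000 FPKM in all 9 libraries, with 10974, 6575 and 3625 FPKM in control leaves, 1223, 4361 and 9127 FPKM in low Se and 3229, 2368 and 7209 FPKM in high Se leaves. The groups overlapped in these sums, and the adjusted p was 0.755 for low Se against control and 0.715 for high Se against control.

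The next most abundant members were seen in nearly every library. MSTRG.57980.1 on chromosome 3.3 had 670.4, 388 and 376 FPKM in control leaves, 342, 525 and 405 FPKM in low Se and 385, 207 and 251 FPKM in high Se leaves. High Se and control overlapped (adjusted p = 0.566). MSTRG.35970.1 on chromosome 2.3 had 281, 152 and 80.7 FPKM in control leaves, 65.2, 375 and 235 FPKM in low Se and 303, 272 and 434 FPKM in high Se leaves. All high Se values but 1 lay above every control value, and the change did not pass (adjusted p = 0.553). MSTRG.63693.1 on chromosome 3.4 had 130.3, 77.7 and 104 FPKM in control leaves, 121, 108 and 71.5 FPKM in low Se and 133, 169 and 206 FPKM in high Se leaves. Its high Se values did not overlap the other groups, by a margin of a few FPKM at the nearest library, and the adjusted p was 0.622 against control and 0.673 against low Se.

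MSTRG.53266.1, a transcript of 540 bases on chromosome 3.2 with an intron of 14944 bases, had 78.6, 0 and 31.6 FPKM in control leaves, 66.4, 93.7 and 149 FPKM in low Se and 143, 326 and 339.9 FPKM in high Se leaves. Its high Se values did not overlap control, where 1 library was at 0. The log2 change was 5.32 ± 1.58 (SE) and did not pass (adjusted p = 0.352). MSTRG.14772.5 on chromosome 1.2 showed the reach of single libraries: it had 9.39 FPKM in control 1 against 403 and 721 FPKM in the other control libraries, with 548, 248 and 152 FPKM in low Se and 152, 53.1 and 54.3 FPKM in high Se leaves. The same library was low for the whole locus, with a sum over 5 forms of 28.7 FPKM in control 1 against 3772 and 2321 FPKM in control 2 and control 3.

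**Figure D3:**
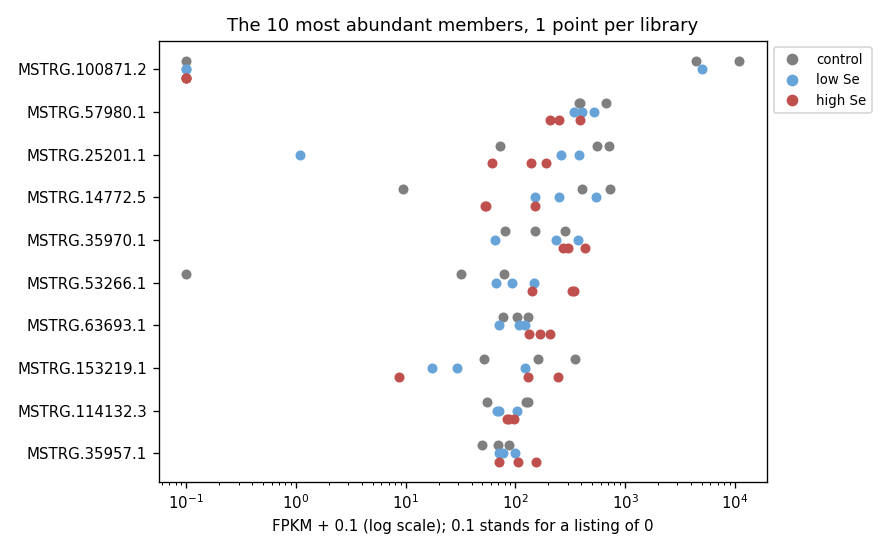
FPKM (horizontal axis, FPKM + 0.1 on a log scale, so that a listing of 0 stands at 0.1) of the 10 intergenic 2-exon lncRNAs with the highest mean, 1 point per library, coloured by control, low Se and high Se. The points of MSTRG.100871.2 fall either at a listing of 0 or at 4426 and above, while those of MSTRG.57980.1 stay between 207 and 670.4 FPKM.

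A few members were steady across all leaves. Among 202 members above 0 in all 9 libraries with a mean of at least 5 FPKM, MSTRG.101473.1 had the smallest coefficient of variation, 12.9%. This transcript of 871 bases on chromosome 5.4 had 12.9, 15.4 and 15.8 FPKM in control leaves, 11.6, 15.3 and 14.4 FPKM in low Se and 17.2, 16.5 and 12.8 FPKM in high Se leaves. MSTRG.155884.1 on chromosome 8.4 followed at 16.4%, with 13.9 to 24.8 FPKM. MSTRG.116807.1, MSTRG.81349.1 and MSTRG.71835.1 had coefficients of 20.2%, 20.8% and 22.3%. These are exceptions: over the 742 members above 0 in every library, the median coefficient was 61.3% and the highest library stood at a median of 8.98 times the lowest. The 6743 other transcripts above 0 in every library had a median coefficient of 59.7%, so the class did not stand out in spread.

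Selenite and the single members were compared with limma on log2(FPKM + 0.1), in a fit of all 9 libraries and all 43763 transcripts that averaged 0.5 FPKM or more, among them 4061 members (75.2%). Changes below are on that scale, which shrinks differences between low values above 0. Where a library is listed at 0, the size of a change depends on the 0.1 added. For MSTRG.75431.2, high Se against control, it was 7.77, but 4.51 with 1 added and 11.09 with 0.01 added. The median standard error of a member's log2 change was 1.55, so that only very large differences could pass. The comparisons of low Se and high Se against control share the control libraries.

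At the low dose, no member was called against control at an adjusted p below 0.05, where 0.0274% of all tested transcripts were called. At an unadjusted p below 0.05 there were 373 members (9.18%), beside 8.43% of all tested transcripts. Low Se lay wholly above control for 207 members (5.1%, beside 4.78% of all tested) and wholly below for 205 (5.05%, beside 4.32%). The median log2 change was 0.00 for members and 0.00 for all tested transcripts. In counts and median alike, the members were close to the table as a whole.

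The members nearest to a call at the low dose had an adjusted p of 0.0867. MSTRG.106873.1, a minus-strand transcript of 1022 bases on chromosome 6.1, had 6.75, 11.8 and 14.3 FPKM in low Se leaves, against 0, 0.915 and 0 FPKM in control leaves. Every low Se value was above every control value, by 5.61 ± 1.06 (SE) on the log2 scale. In high Se leaves it had 1.8, 2.32 and 2.77 FPKM, between the other groups. MSTRG.94122.1 on chromosome 5.2 went the other way, with 0 FPKM in all 3 low Se libraries against 20.1, 3.54 and 6.55 FPKM in control leaves (adjusted p = 0.0867). High Se leaves had 4.8, 0.372 and 1.47 FPKM of it.

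Both loci have a second listed form. MSTRG.94122.2 has the same ends, length and intron size, and it too was at 0 in all 3 low Se libraries, against 17.2, 1.92 and 1.87 FPKM in control leaves. When FPKM was summed over the forms of each locus, an alternative added after the data were seen, MSTRG.94122 was called lower in low Se than in control (adjusted p = 0.0224). Its sums were 0 FPKM in each low Se library, against 37.3, 5.46 and 8.42 FPKM in control libraries. MSTRG.106873 summed to 6.75, 17.8 and 20.9 FPKM in low Se leaves, against 0, 0.915 and 0 FPKM in control leaves (adjusted p = 0.0707).

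A pair of more abundant members had lower values at the low dose without reaching 0. MSTRG.138893.1, of 536 bases on chromosome 8.1, had 9.15, 6.72 and 1.33 FPKM in low Se leaves, against 60.6, 39.6 and 96.7 FPKM in control leaves. The groups did not overlap, the log2 change was -3.78 ± 0.76 (SE), and the adjusted p was 0.113. High Se leaves had 53.9, 64.9 and 14 FPKM, so that 1 high Se library lay below the control range. MSTRG.118861.1, of 1514 bases on chromosome 6.4 with an intron of 15962 bases, had 13.1, 12.5 and 5.03 FPKM in low Se leaves, against 48.9, 56.4 and 49.5 FPKM in control leaves. Its log2 change was -2.44 ± 0.56 (SE; adjusted p = 0.183), and high Se leaves lay in between at 28.5, 35.8 and 20.7 FPKM. The other members named for the low dose by smallest p, in either direction, had an adjusted p of 0.0895 to 0.236. Among these, MSTRG.93406.1 on chromosome 5.2 had 13.1, 11.3 and 3.58 FPKM in low Se leaves, against 1.97, 0 and 0 FPKM in control leaves. Its adjusted p was 0.205 with all libraries and 0.0438 without control 1. It passed in only 1 of the 9 fits with a library left out, where the adjusted p reached 0.519.

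Several members were listed at 0 in most or all control libraries and above 0 in every low Se and high Se library. MSTRG.110512.1, of 482 bases on chromosome 6.2, was at 0 in all 3 control libraries and had 1.84, 4.54 and 4.99 FPKM in low Se and 9.35, 7.22 and 3.08 FPKM in high Se leaves. MSTRG.115358.1 on chromosome 6.3 was likewise at 0 in control, with 1.56, 3.87 and 3.04 FPKM in low Se and 4.04, 5.73 and 2.99 FPKM in high Se leaves. Neither passed: the adjusted p of MSTRG.110512.1 was 0.101 for low Se and 0.0622 for high Se against control, and that of MSTRG.115358.1 was 0.146 and 0.104. MSTRG.82647.1, of 381 bases on chromosome 4.3, had 1.35, 0 and 0 FPKM in control leaves, 10.5, 9.18 and 8.18 FPKM in low Se and 15.2, 13.4 and 8.84 FPKM in high Se leaves. Its adjusted p was 0.0895 for low Se and 0.0661 for high Se against control. Control 1 was the only control library with any of it, and without that library the adjusted p was 0.0126 for low Se and 0.0139 for high Se. Each change passed in only 1 of the 9 fits with a library left out, and the highest adjusted p among these was 0.32 for low Se and 0.424 for high Se.

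At the high dose 1 member, MSTRG.75431.2, was called higher than in control, where 0.0183% of all tested transcripts were called higher and 0.0229% in either direction. No member was called lower, at a background of 0.00457%. At an unadjusted p below 0.05 there were 409 members (10.1%), beside 9.26% of all tested transcripts, and of these 281 were higher (6.92%, beside 6.11%) and 128 lower (3.15%, beside 3.15%). High Se lay wholly above control for 341 members (8.4%, beside 7.81% of all tested) and wholly below for 160 (3.94%, beside 4.02%). The median log2 change was 0.32 for members and 0.26 for all tested transcripts. Under quantile normalization these medians were 0.14 and 0.04, and under rescaling by the median of ratios 0.22 and 0.15.

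MSTRG.75431.2 is a plus-strand transcript on chromosome 4.2 (49300766 to 49302082) of 1132 bases with an intron of 185. It had 25.5, 17.7 and 22.9 FPKM in the high Se libraries, against 0 FPKM in all 3 control libraries, and it was at 0 in all 3 low Se libraries too. The high Se mean was 22 ± 3.96 FPKM (SD, n = 3). The adjusted p was 0.0442 against control and 0.0442 against low Se. It was the only member called in any of the 3 comparisons.

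The locus has a second listed form. MSTRG.75431.1 is a single exon of 2721 bases that starts at the same base and was above 0 in all 9 libraries. It had 6.47, 6.91 and 3.98 FPKM in control leaves, 2.74, 2.69 and 1.89 FPKM in low Se and 3.66, 6.22 and 3.71 FPKM in high Se leaves. Its high Se and control values overlapped. Summed over both forms, the locus had 29.1, 23.9 and 26.6 FPKM in high Se leaves, against 6.47, 6.91 and 3.98 FPKM in control leaves. The sums did not overlap between these groups, but their log2 difference of 2.21 ± 0.63 (SE) did not pass (adjusted p = 0.333). Against low Se, with sums of 2.74, 2.69 and 1.89 FPKM, the difference was 3.40 ± 0.63 (SE; adjusted p = 0.128).

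The call itself was near the threshold. Against control, leaving out control 2 or control 3 gave an adjusted p of 0.0956 or 0.107, leaving out low Se 2 or low Se 3 gave 0.0711 or 0.0514, and leaving out high Se 1, 2 or 3 gave 0.304, 0.348 or 0.352. It held without control 1 (0.0373) and without low Se 1 (0.04). Against low Se the same 7 libraries ended the call when left out, with an adjusted p of 0.0614 to 0.431.

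**Figure D4:**
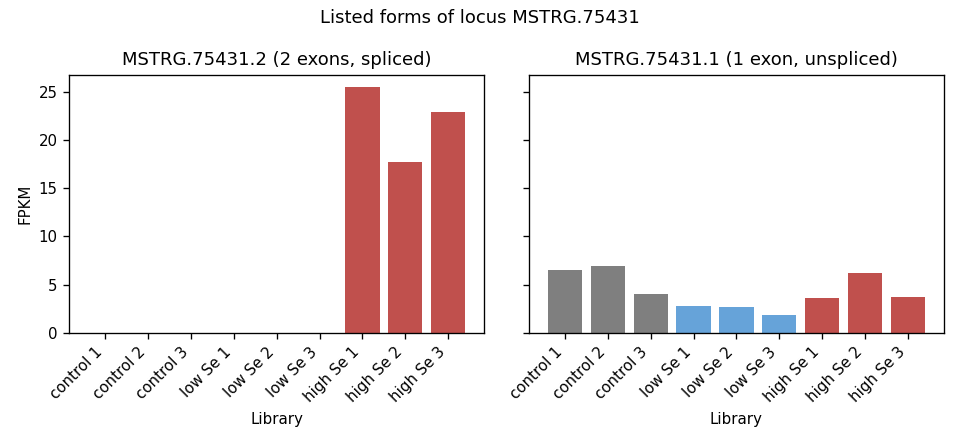
FPKM (vertical axis) in each of the 9 leaf libraries for the listed forms of locus MSTRG.75431, the form of 2 exons on the left and the form of 1 exon on the right. The form of 2 exons stands at 17.7 to 25.5 FPKM in the high Se libraries and at 0 in the other 6, while the form of 1 exon is above 0 in all 9.

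Other members with large values at the high dose did not pass. MSTRG.73109.2, of 333 bases on chromosome 4.2 with an intron of 42, had 47.1, 38.5 and 37.9 FPKM in high Se leaves, against 0 FPKM in all control libraries (adjusted p = 0.0875). In low Se leaves it was at 22.6, 0 and 0 FPKM, so low Se 1 alone resembled the high dose. Without low Se 1 in the shared fit, the adjusted p against control was 0.0135. The change passed in only 1 of the 9 fits with a library left out, where the adjusted p reached 0.497. MSTRG.121386.1 on chromosome 7.1 had 2.78, 8.87 and 20.2 FPKM in high Se leaves and was at 0 in the other 6 libraries (adjusted p = 0.175 against control). Among members with lower values, MSTRG.72199.1, of 561 bases on chromosome 4.2, was at 0 in all high Se libraries, against 6.74, 9.93 and 1.38 FPKM in control and 5.17, 9.04 and 4.8 FPKM in low Se libraries. Its adjusted p was 0.0901 against control and 0.0882 against low Se. MSTRG.111892.1 on chromosome 6.2 was above 0 in control alone, at 6.22, 4.54 and 8.68 FPKM, with an adjusted p of 0.172 for low Se and 0.204 for high Se against control.

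Between the doses, MSTRG.75431.2 was again the single member called, higher in high Se than in low Se, where 0.0183% of all tested transcripts were called higher and 0.0206% in either direction. There were 355 members (8.74%) at an unadjusted p below 0.05, beside 7.84% of all tested transcripts. High Se lay wholly above low Se for 322 members (7.93%, beside 7.31% of all tested) and wholly below for 148 (3.64%, beside 3.94%). The median log2 change was 0.27 for members and 0.20 for all tested transcripts, 0.06 and 0.00 under quantile normalization, and 0.16 and 0.08 under rescaling by the median of ratios. MSTRG.45143.1, of 644 bases on chromosome 3.1, was at 0 in all 3 high Se libraries, against 7.07, 56.7 and 44 FPKM in low Se leaves (adjusted p = 0.214). In control it had 0, 79.7 and 11 FPKM, so control 1 resembled high Se. Without control 1 in the shared fit, the adjusted p of high Se against low Se was 0.0368. The change passed in only 1 of the 9 fits with a library left out, where the adjusted p reached 0.639. MSTRG.100041.5 on chromosome 5.3 had 7.65, 11.7 and 3.53 FPKM in high Se leaves, against 0, 0 and 0.498 FPKM in low Se leaves (adjusted p = 0.173).

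Patterns of presence in whole groups and absence from others were counted beside the same patterns over the table. Tested members above 0 in every high Se library and at 0 in the other 6 numbered 19 (0.468%, beside 0.51% of all tested transcripts). The same pattern for low Se held in 13 members (0.32%, beside 0.254%) and for control in 3 (0.0739%, beside 0.258%). Presence in every low Se and high Se library with a listing of 0 in every control library held in 17 members (0.419%, beside 0.423%). Absence from low Se alone held in 15 (0.369%, beside 0.288%) and absence from high Se alone in 3 (0.0739%, beside 0.0845%). A listing of 0 is not proof of absence at these depths.

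For part of the members, a listing of 0 came with another form of the same locus above 0. A single listed form was the case for 4016 members (74.4%), while 1382 (25.6%) shared their locus with other listed forms. Of 5510 library values at 0 among these 1382 members, 3488 (63.3%) had another form above 0 in the same library. Values at 0 were no more common among these members (44.3%) than among those that are the only listed form (46.4%). The locus with the most members was MSTRG.13772 on chromosome 1.2, with 9.

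MSTRG.114132 on the plus strand of chromosome 6.3 is a case in which forms traded places. All 8 of its listed forms are members, and MSTRG.114132.7 and MSTRG.114132.8 end at the same base, 21877120. MSTRG.114132.7 had 0, 60.9 and 131 FPKM in control leaves, 116, 0 and 1.47 FPKM in low Se and 147, 106 and 130.0 FPKM in high Se leaves. MSTRG.114132.8 had 142, 0 and 0 FPKM in control leaves, 0, 103 and 0 FPKM in low Se and 0 FPKM in all high Se libraries. In the libraries where 1 of them was above 100 FPKM the other was at 0. Summed over the 8 forms, the locus had 371, 155 and 375 FPKM in control leaves, 341, 211 and 117 FPKM in low Se and 340.1, 274 and 403 FPKM in high Se leaves. The groups overlapped in these sums.

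Pairs of members also lay on opposite strands with almost the same ends. With both ends within 20 bases there were 29 such pairs among 48 members, and in 10 of them both ends were identical. In 22 pairs each strand was the higher in at least 1 library, and in 7 the same strand was higher wherever the strands differed. MSTRG.57980.1 and its minus-strand partner MSTRG.57981.1 on chromosome 3.3 are of the second kind. The partner had 11, 1.97 and 16.1 FPKM in control leaves, 10.5, 1.51 and 11.9 FPKM in low Se and 4.5, 12.1 and 13.4 FPKM in high Se leaves, far below the plus strand in all 9 libraries.

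MSTRG.25201.1 on plus and MSTRG.25202.1 on minus of chromosome 1.4, which share the lower coordinate 62228486, are of the first kind. The plus strand had 72.2, 713 and 554 FPKM in control leaves, 378, 0.987 and 259.8 FPKM in low Se and 188, 139 and 61.2 FPKM in high Se leaves. The minus strand, named after its values were seen, had 0, 4.37 and 29.9 FPKM in control leaves, 0, 60.1 and 216 FPKM in low Se and 0, 178 and 205 FPKM in high Se leaves. The plus strand led in 6 libraries, among them all control libraries, and the minus strand in low Se 2, high Se 2 and high Se 3. Per the labels' protocols the libraries kept the strand, but whether the authors' quantification used it is not given in the sources used here. Reads of such partners may not be told apart.

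**Figure D5:**
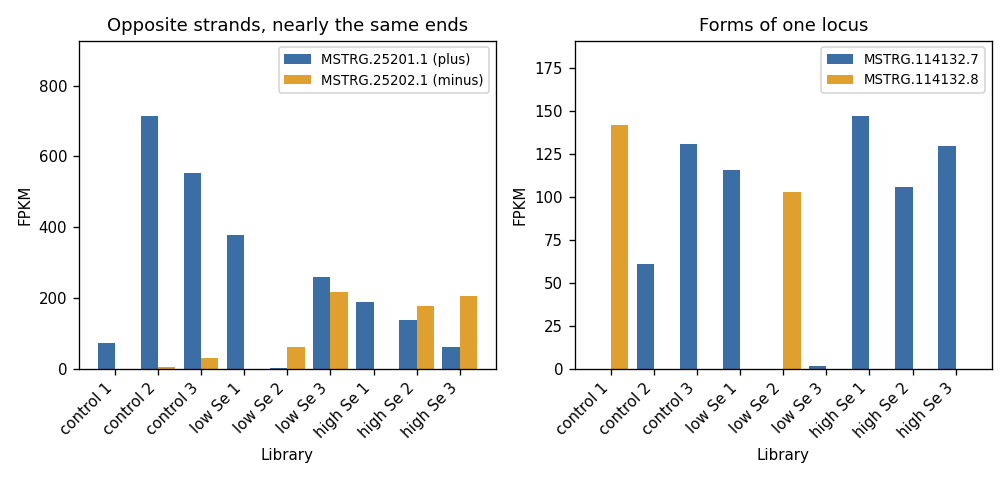
FPKM (vertical axis) in each of the 9 leaf libraries for members on opposite strands with nearly the same ends (left, MSTRG.25201.1 and MSTRG.25202.1) and for forms of locus MSTRG.114132 (right). The strands change order between libraries, and MSTRG.114132.8 is above 0 only in control 1 and low Se 2, where MSTRG.114132.7 is at 0.

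Alfalfa is a tetraploid, and the table's chromosome names give homologous sets by their first digit. Members with both the same length and the same intron on different chromosomes formed 37 pairs, and 16 of these (43.2%) joined homologous chromosomes, beside 9.75% of all pairs of members on different chromosomes. All 16 homologous pairs had the same strand, as did 7 of the other 21. MSTRG.10197.1 on chromosome 1.1 and MSTRG.21027.1 on chromosome 1.3, both of 229 bases with an intron of 463, had FPKM equal within 1% in 5 of the 7 libraries with either above 0. This pair was the exception: of the 37 pairs, 2 were equal within 1% in at least 1 library, and this one alone in most of its libraries. Both of its members listed 1.27 FPKM in control 2, 0.818 FPKM in high Se 1 and 3.95 FPKM in high Se 3. MSTRG.30755.1 on chromosome 2.1 and MSTRG.34907.1 on chromosome 2.2, of 542 bases with an intron of 151, had separate values instead. The first had 2.28, 0.512 and 7.14 FPKM and the second 4.45, 1.72 and 0 FPKM in the control libraries.

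How many values were divided between models may be read in part from the deposited values, if coverage times length is a whole number of bases where reads were not shared. That reading was not tested. A whole number, within 0.02 bases, was found for 29.3% to 34.1% of the members' values above 0 in a library, beside 53% to 59.8% for all other transcripts. The share was 18.6% to 23.4% for intergenic transcripts with 3 or more exons and 40.6% to 48.2% for strand-assigned intergenic transcripts of 1 exon. Members that are the only listed form of their locus came to 35.2% to 40.3%. Most values of intergenic 2-exon lncRNAs were thus not whole numbers of bases. Whether reads were divided is not known, so values of single members with homologous copies, paralogs or overlapping models stay uncertain.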

How the data were processed

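The authors deposited FPKM per predicted lncRNA transcript and library, and, per the file headers, a coverage signal per base, left unscaled for depth. A value of 0.0001 stands for 0 in these columns and was read as 0. Coding potential is deposited as a CPC score and a CNCI score, with maxima of 0.493 and -0.00041. The submitters' processing notes list Bowtie2, HISAT2, edgeR and StringTie but give them neither roles nor versions. Per the labels' protocols, ribosomal RNA was removed from about 5 µg of total RNA (integrity number over 7), and the second cDNA strand was made with dUTP. The genome build is not given in the sources used here, and coordinates are those of the deposited table.

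Class codes were read in their usual sense, with u as intergenic and o as overlapping a gene on the same strand. The tool that assigned them is not given in the sources used here. All 9 libraries entered a limma fit (version 3.58.1, R 4.3.3) of log2(FPKM + 0.1) with a trended variance. It covered the 43763 transcripts that averaged 0.5 FPKM or more, and those whose p, adjusted over all of them by the Benjamini-Hochberg method, was below 0.05 were called. The table holds no counts, so no count test was run. Members and lists were chosen with earlier results of these data known. Named by rule were, in each comparison, members called and those of smallest p up to 10 per direction. Added to these were the 10 with the highest mean and 5 with the smallest coefficient of variation. Then came 3 each with the longest and shortest intron, and the 5 all-or-none members with the highest mean. All-or-none members were at 0 in every library of a group and above 0 in every library of another. Members outside this rule are said to be named after their values were seen. Others appear as forms or partners of named loci or as pairs of equal length and intron. Alternatives covered pseudocount, filter, scaling, variance trend, libraries in the fit, the replicate number and sums per locus. Tables and figures used Python 3.11.15, NumPy 2.4.6, pandas 2.3.3 and matplotlib 3.10.9.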

Additional observations from a re-analysis of the deposited data

How the results depend on the processing

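Calls among the members moved with most settings. The counts below are of members alone. The share of all tested transcripts called under each alternative is not given, so the counts cannot be set against the table as a whole. Low Se against control gave 0 calls, but 6 without the filter on low values, 2 with only the 6 libraries compared, 2 with FPKM summed per locus and 0 to 3 with a library left out. High Se against control gave 1, but 3 when the pseudocount was 1, 0 when it was 0.01, 5 without the filter, 0 when a mean of 2 FPKM was required, 2 with only the 6 libraries, 0 with sums per locus and 0 to 4 with a library left out. High Se against low Se gave 1, but 0 when the pseudocount was 0.01, 3 without the filter, 0 when a mean of 2 FPKM was required, 0 without the variance trend, 3 with only the 6 libraries and 0 to 3 with a library left out. The filter was recomputed over the libraries of each fit, and the cause of these moves was not tested. Quantile normalization and rescaling by the median of ratios kept each count. The high counts on leaving out a library came without control 1 (3, 4 and 2 calls for the 3 comparisons in that order) and without low Se 1 (3, 2 and 3).

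With the replicate number as a block, calls were 0, 0 and 0, and the adjusted p of MSTRG.75431.2 was 0.0703 against control and 0.105 against low Se. Same-numbered libraries deviated from their group means with correlations of -0.0512 to 0.0348 over the tested members, so the numbers are not taken to pair samples. MSTRG.75431.2 also lost its call at the pseudocount of 0.01 (0.219 and 0.285), the higher filter (0.0774 and 0.0713) and, against low Se, no variance trend (0.0568). Of 60 named changes under 1086 alternative values none reversed, 25 values newly passed and 23 no longer passed. The changes were named for the smallest p in these same data, so the lack of reversals is no independent check.

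Counted at 0.5 FPKM or more, members detected averaged 2378 for control, 2439 for low Se and 2762 for high Se leaves. With a library left out, those above 0 averaged 2568 to 2879.5 for control, 2712 to 2940.5 for low Se and 3129.5 to 3318 for high Se leaves. The share of FPKM averaged 4.56% to 5.49% for control, 3.37% to 3.89% for low Se and 3.54% to 3.92% for high Se leaves, and control came to 3.58% without its highest member. Median coverage of 0.986 to 3.47 limits all single values.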

Other observations

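Members were densest in the window of 1 Mb that starts at 21 Mb on chromosome 6.3, with 19 members in 9 loci, against a median of 2 members per window over 2092 windows with any. One of these, MSTRG.114099.1 (21734263 to 21744778 on plus), had 3.15, 182 and 258 FPKM in control leaves, 0.678, 0 and 0.232 FPKM in low Se and 4.3, 1.02 and 0 FPKM in high Se leaves. Control 2 and control 3 stood far above the other 7 libraries, control 1 did not, and the adjusted p was 0.127 for low Se and 0.288 for high Se against control (0.0576 and 0.103 without control 1). The last values were the lowest of the 9 fits with a library left out, where the adjusted p reached 0.485 and 0.577.

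On the homologous chromosome 6.2, the locus MSTRG.110357 was also highest in control 2 and control 3, a comparison chosen after its values were seen. Its FPKM summed over 3 forms was 76.3, 3405 and 4424 for control leaves. The sums were 159.7, 72.8 and 96.1 for low Se and 117, 131 and 158 for high Se leaves. Neither change passed in the limma fit of sums per locus (adjusted p = 0.335 for low Se and 0.402 for high Se against control). The member MSTRG.110357.2 (intron 63649 bases) had 28.8, 63.4 and 110.5 FPKM in control leaves, 87.2, 39.3 and 42.8 FPKM in low Se and 25.7, 29.9 and 31.8 FPKM in high Se leaves, and the high control sums were carried by MSTRG.110357.3, a form of 5 exons at 17, 3286 and 3647 FPKM in control. MSTRG.110362.1, a member further along chromosome 6.2, had 3.51, 13.1 and 13.1 FPKM in control leaves. It had 0.185, 0 and 0 FPKM in low Se and 0.426, 0.189 and 0 FPKM in high Se leaves. These changes did not pass either (adjusted p = 0.146 for low Se and 0.284 for high Se against control). Not all transcripts of this stretch had the pattern. MSTRG.110361.1, which lies between them, had 111, 63.5 and 143 FPKM in control leaves and 96.8 to 148 FPKM in the other groups.

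In sums per locus, MSTRG.131912 on chromosome 7.3 was called lower in low Se than in control (adjusted p = 0.0112) and higher in high Se than in low Se (adjusted p = 0.00446). Its sums rest on a form of 1 exon, MSTRG.131912.1, with 7.45, 5.62 and 8.19 FPKM in control leaves, 0 FPKM in all low Se and 31.8, 21.3 and 9.48 FPKM in high Se libraries. Its 2-exon form, MSTRG.131912.2, was above 0 in high Se 1 (2.77 FPKM) and high Se 2 (2.82 FPKM) alone.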
